A study of Mus musculus with 9 samples.

Results

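Solute carriers are membrane proteins that move amino acids, sugars, metals, nucleotides and other small molecules across the plasma membrane and the membranes of organelles. The genes described here are the mouse solute carrier genes measured in bone marrow derived dendritic cells: every gene with an Slc symbol and family number whose best probe set had a mean of at least 7 in log2(signal + 16) over 9 Affymetrix arrays. Of 347 solute carrier genes with a probe set of their own, 168 met that level, among 12586 genes tested in all, and 179 were below it. The genes were chosen by their mean signal over all arrays, so their level is no finding, and the set was proposed with the results of the comparisons known. Of the 168, 154 had a mean of at least 7 in each group, and the other 14 were below 7 in at least 1 group. Just inside the limit were Slc46a3 at a mean log2 of 7.01 and Slc8a1 at 7.05, and just outside it were Slc1a4 at 6.95 and Slc15a2 at 6.92. Of the 168, 3 entries carry a solute carrier symbol with a suffix but encode no transporter: Slc9a3r1, a scaffold protein, Slc4a1ap and Slc7a6os. Classes were set by family number. Slc7a6os is therefore counted below with the amino acid carriers, and Slc9a3r1 and Slc4a1ap with the inorganic ion carriers.

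The cells came from bone marrow of 129/SvEv mice, which was cultured over 9 to 12 days in GM-CSF, the cytokine that drives marrow cells toward dendritic cells and macrophages. The 3 groups of 3 arrays were wild-type cells left unstimulated in media, wild-type cells given purified DNA of tumor cells with Lipofectamine for 7 h, and STING knockout cells given the same DNA in the same way. STING is the adaptor protein that passes on the detection of DNA in the cytosol, and the comparisons ask how wild-type cells responded to tumor DNA and how knockout cells under DNA differed from them. Neither knockout cells without DNA nor cells with only the lipid reagent were analysed here, so the part of the DNA and that of the reagent cannot be told apart, nor can a difference between the genotypes at rest and one in the response. The labels do not say whether the 3 samples of a group were separate mice or cultures, so the spread behind each p-value is that between these 3 samples and may be technical.

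In immune cells, activation changes what a cell takes up and puts out. Dendritic cells that meet danger signals shift toward glycolysis, import arginine and cystine, and move iron, zinc and copper between the phagosome, the cytosol and the outside. Among the large solute carrier families are the mitochondrial carriers of family 25, which exchange metabolites across the inner mitochondrial membrane, and family 35, which brings nucleotide sugars and related donors into the Golgi apparatus and endoplasmic reticulum for glycosylation. Zinc is moved into the cytosol by family 39 and out of it by family 30.

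Sting1, the targeted gene, had signals of 246, 336 and 327 in the knockout arrays, 2258, 1061 and 1158 in the wild-type arrays with DNA and 1524, 1081 and 646 in media. The knockout arrays lay below all others. The median standard error of a difference over the solute carriers was 0.23 in log2. Arrays with the same number in their titles deviated together, with residual correlations between 0.17 and 0.49 over 9 pairs. A spiked control, BioB, was at 494 to 585 on the arrays numbered 1 and at 136 to 200 on the others. Of 12 dendritic cell and macrophage markers, 11 passed the filter on low signal, with summed signals of 110146 to 131936 in media, 116308 to 141493 with DNA and 100236 to 124757 in the knockout. Flt3, a marker of conventional dendritic cells, did not pass, and Ly75 was called higher with DNA (1.74, adjusted p = 0.0078). Summed signals of 7 neutrophil markers ranged from 17130 to 71159, from 24891 to 91228 and from 34994 to 41801 in the same order, with Mpo called lower in the knockout (-1.08, adjusted p = 0.04). Those of 4 fibroblast markers ranged from 563 to 5261, from 666 to 4413 and from 844 to 6139. Of 7 mast cell and basophil markers, summed at 395 to 1128, 1302 to 3432 and 239 to 291, 4 were called lower in the knockout, and Hdc was called higher with DNA. The part of these other cells in the results below was not tested.

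More solute carriers fell than rose with tumor DNA in wild-type cells. Of the 168 genes, 58 fell and 19 rose at an adjusted p below 0.05, and 91 were not called. In such bulk samples, fewer cells of a type and less RNA per cell cannot be told apart. Over all genes tested, 23.6% were called lower and 9.94% higher (33.6% either way), and among the 9373 genes with a mean of at least 7 the shares were 29.7% and 11.8%. The median difference was -0.43 in log2 for the solute carriers, -0.20 for all genes and -0.31 for the genes at that level. In the same test, 54 solute carriers (32.1%) were higher and 14 (8.33%) lower in knockout than in wild-type cells under DNA. The shares were 21.8% and 9.73% of all genes (31.5% either way), and 27.6% and 11.6% of the genes at that level. The median difference was 0.38 for the solute carriers, 0.20 for all genes and 0.28 for the genes at that level. Knockout cells with DNA against wild-type cells in media gave 0 calls of 168, where 0.429% of all genes were called (0.167% higher and 0.262% lower). At an unadjusted p under 0.05 there were 14 of the 168, 948 of all 12586 genes and 755 of the 9373 at that level. The 0 calls of solute carriers became 1 higher and 1 lower when the array number entered the limma model as a block. The 3 comparisons share arrays, so their values for a gene are not independent and are set side by side only.

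The split between rises and falls depended on how the arrays were scaled. With quantile normalization, 23 solute carriers were called higher and 41 lower with DNA, and with each array centred on its median 34 were higher and 24 lower. The median of all genes moved from -0.20 to -0.10 and 0.24 under these scalings. The share of all genes called under each alternative is not given here, so these counts are no result particular to solute carriers. Relative to all genes, the solute carriers' median was lower by 0.23, 0.16 and 0.23 under the deposited scale, quantile normalization and median centring, and relative to genes at the same level by 0.12, 0.09 and 0.12. For the knockout against the wild type, the splits were 45 higher to 17 lower with quantile normalization and 25 to 24 with median centring. Leaving out the arrays numbered 3 left 9 rises and 18 falls with DNA, and 18 genes higher and 7 lower in the knockout. Without the arrays numbered 2 there were 11 rises and 37 falls and 30 genes higher in the knockout, and without the wild-type DNA array numbered 1 there were 12 rises. The plot of differences by transport class shows each gene.

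**Figure D1:**
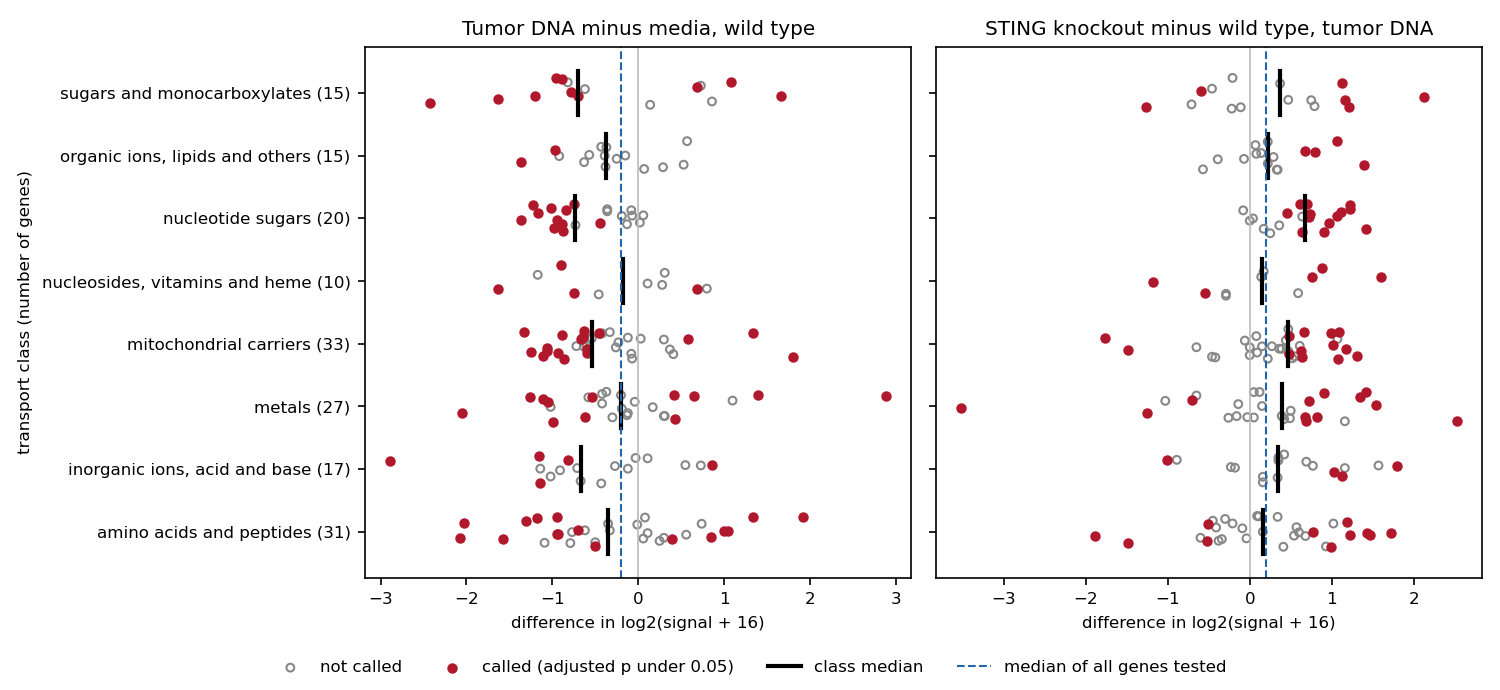
Difference in log2(signal + 16) for each of the 168 solute carriers by transport class, for tumor DNA minus media in wild-type cells (left) and STING knockout minus wild type under tumor DNA (right); filled points are called at an adjusted p below 0.05, black bars are class medians and the dashed line is the median of all genes tested. Nucleotide sugar carriers had no call above 0 on the left and none below 0 on the right.

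Among called genes whose DNA and media arrays did not overlap, the 10 largest rises with DNA spanned zinc, copper, amino acid, sugar, ion and mitochondrial carriers. Slc39a2, a zinc importer of family 39, had signals of 58.3, 89.5 and 207 in media and 905, 783 and 951 with DNA. In the knockout it was at 9.73, 149 and 94.2. All 3 wild-type DNA arrays lay above the 6 others. The difference was 2.89 ± 0.62 (SE, log2; limma adjusted p = 0.0068) with DNA and -3.52 ± 0.62 for knockout against wild type (adjusted p = 0.0025). The size of its rise ranged from 2.45 to 3.33 over the settings tried. Slc39a2 is 1 of the 14 genes below the level of 7 in at least 1 group, and reached the level through its signal in the wild-type DNA arrays, so that a difference was built into its choice. Slc9a9, Slc36a2, Slc16a7, Slc26a6, Slc35g1 and Slc1a5 are also among the 14. They were low in the wild-type DNA arrays and reached the level through other arrays, so the same limit holds for their lower values with DNA.

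**Figure D2:**
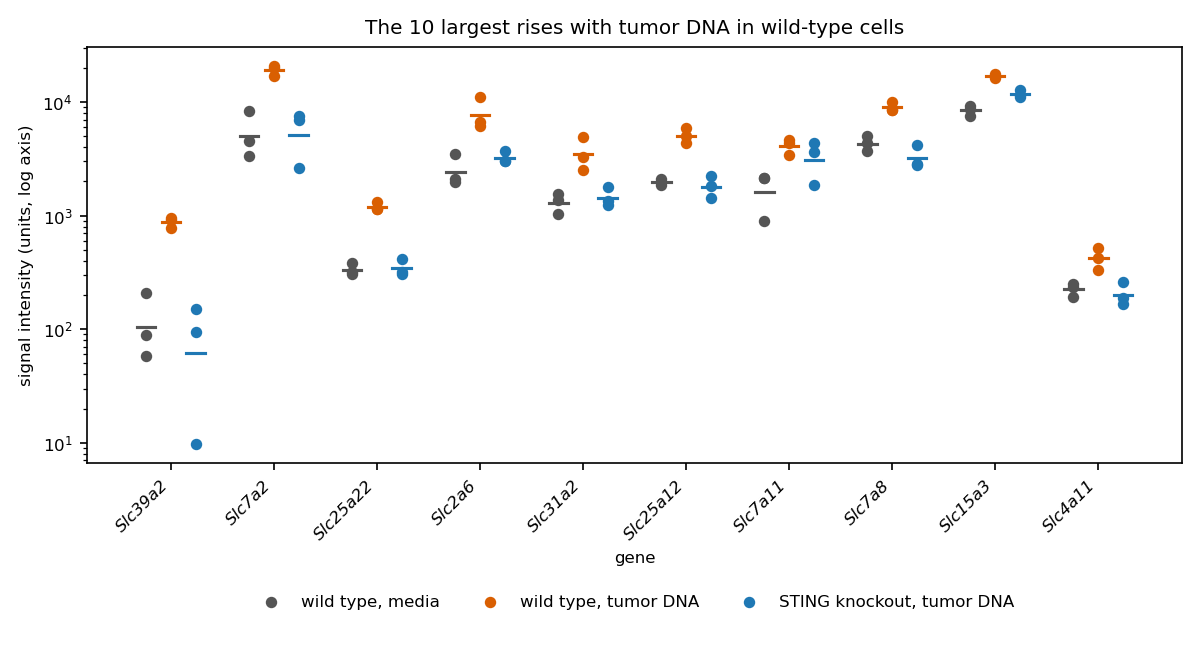
Signal intensity (units, log axis) of the 10 solute carriers with the largest called rises on DNA among those whose DNA and media arrays did not overlap, in the 3 arrays of each group; points are arrays and short lines are means on the log2(signal + 16) scale. The choice fixed that DNA arrays lie above media arrays. The knockout arrays of Slc7a11 overlap its wild-type DNA arrays, and those of the other 9 genes lie below theirs.

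Amino acid and peptide carriers moved both ways. Of 31, 6 rose and 10 fell with DNA, and 7 were higher and 4 lower in the knockout. With the number as a block, 11 were higher, among them Slc7a6os, which is no transporter, and 5 lower. Their median difference with DNA was -0.35 and turned to 0.09 under median centring, and that of the knockout turned from 0.16 to -0.24. The carriers that rose included those of arginine, cystine, large neutral amino acids and lysosomal peptides. Slc7a2 encodes CAT2, which imports arginine, the substrate of nitric oxide synthase and arginase. Its signals were 3365, 4547 and 8245 in media, 19790, 16943 and 20742 with DNA and 2630, 6918 and 7465 in the knockout. The wild-type DNA arrays stood clear of both other groups, by 1.92 ± 0.41 (adjusted p = 0.0062) over media and with -1.89 ± 0.41 for the knockout against them (adjusted p = 0.0064). Its 3 other probe sets gave 2.61, 3.07 and 2.82 for DNA against media. Without the arrays numbered 2 the rise was 1.94 with an adjusted p of 0.051.

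Slc7a11, the cystine importer xCT that feeds glutathione synthesis, had signals of 894, 2158 and 2130 in media and 4363, 3401 and 4609 with DNA. In the knockout they were 1856, 4326 and 3607, which overlapped the wild-type DNA arrays. The rise was 1.34 ± 0.38 (adjusted p = 0.022), while knockout against wild type under DNA was -0.41 ± 0.38 (adjusted p = 0.45) and knockout with DNA against media 0.93 (adjusted p = 0.60). The rise missed the threshold in 4 settings that left out arrays, such as without the media array numbered 1 (0.93, adjusted p = 0.062), and when its probe sets were averaged (1.20, adjusted p = 0.079). Slc3a2, the heavy chain that brings Slc7 light chains to the surface, had signals of 6056, 6498 and 6680 in media, 12512, 11326 and 10964 with DNA and 6857, 8121 and 9628 in the knockout. The knockout arrays lay between the other groups, at 0.85 ± 0.14 for DNA over media (adjusted p = 0.0018) and -0.51 ± 0.14 against the wild type (adjusted p = 0.018, or 0.13 with quantile normalization). Slc7a8, a light chain that exchanges neutral amino acids, rose by 1.05 ± 0.18 and was lower in the knockout at -1.48 ± 0.18. Its signals were 3686, 4334 and 4993 in media, 8438, 10028 and 8458 with DNA and 2831, 2798 and 4163 in the knockout.

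The promoter of Slc7a11 is shown because it holds a motif found in few promoters of the RefSeq table. It runs from 250 bases before to 50 after the annotated start on the minus strand of chr3:50443564-50443863 in GRCm38.p6, and the capitals mark both matches to TGATGNAA, the amino acid response element bound by ATF4.
Slc7a11: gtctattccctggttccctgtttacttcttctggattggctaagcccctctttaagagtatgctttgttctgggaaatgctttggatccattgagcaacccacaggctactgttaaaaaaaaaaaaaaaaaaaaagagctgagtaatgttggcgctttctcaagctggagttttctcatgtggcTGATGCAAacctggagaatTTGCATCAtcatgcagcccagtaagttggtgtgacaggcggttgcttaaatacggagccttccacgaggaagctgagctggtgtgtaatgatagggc

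The matches begin 66 and 47 bases before the start, on opposite strands. TGATGNAA was present in 4.51% of the 27025 genes of the table and in 5 of the 127 solute carriers found there. By call with DNA, it was in 1 of 13 rises, 3 of 41 falls and 1 of 73 genes not called. Of 16 measured genes of the amino acid response, 4 rose and 4 fell with DNA, or 4 and 1 after quantile normalization and 5 and 1 after median centring. Ddit3, a stress transcription factor, rose by 1.26 ± 0.21, Atf3 by 1.18 ± 0.22, Nupr1 by 2.0 ± 0.35 and Mthfd2, an enzyme of mitochondrial folate metabolism, by 1.04 ± 0.24. Shmt2, Sesn2, Aldh18a1 and Cebpg fell, and Atf4 itself was at 0.27 ± 0.20 (adjusted p = 0.31). Asns, whose product makes asparagine, was at -0.38 ± 0.45 (adjusted p = 0.55).

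Slc15a3, a lysosomal carrier of histidine and peptides, had signals of 8687, 7581 and 9206 in media, 17710, 16761 and 16322 with DNA and 11079, 11586 and 12837 in the knockout. The 3 groups did not overlap. The rise was 1.0 ± 0.11 (adjusted p = 0.00042), and the knockout arrays were lower than the wild-type ones at -0.52 ± 0.11 (adjusted p = 0.0064, or 0.056 with quantile normalization). Leaving out the arrays numbered 1, that adjusted p was 0.059 and without those numbered 2 it was 0.051. The related Slc15a4, which supports Toll-like receptor signalling from endolysosomes, was not called, at 0.08 ± 0.32 with DNA and 0.11 ± 0.32 for the knockout. Slc6a6, the taurine importer, rose by 0.40 ± 0.12, a call lost in 9 of the 21 alternatives.

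The amino acid carriers that fell were mainly neutral and proton-coupled ones. Slc43a2, a facilitator of branched-chain amino acids, had signals of 7942, 4698 and 6328 in media, 1948, 1636 and 1055 with DNA and 5374, 2914 and 4302 in the knockout. The wild-type DNA arrays lay below both other groups (-2.03 ± 0.29, adjusted p = 0.0011, and 1.43 ± 0.29 for the knockout, adjusted p = 0.005, or 1.14 and 0.094 without the arrays numbered 3). Slc7a6, a light chain that exchanges cationic for neutral amino acids, fell from 462, 465 and 324 to 120, 168 and 103 and was at 405, 504 and 476 in the knockout (-1.57 ± 0.23 and 1.72 ± 0.23). Slc36a2, a proton-coupled carrier of small amino acids, was at 815, 283 and 449 in media, 157, 72.4 and 83.8 with DNA and 242, 102 and 147 in the knockout. It fell, at -2.08 ± 0.42, and the knockout arrays overlapped the wild-type DNA arrays (0.57 ± 0.42, adjusted p = 0.34, or 0.031 with the number as a block). When the arrays numbered 3 were left out, the fall of Slc36a2 had an adjusted p of 0.084.

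Glutamine and other small neutral amino acids are carried by family 38, where 4 of 6 members fell and 0 rose, or 1 fell after median centring. Slc38a1 fell, at -1.31 ± 0.21, from 1529, 2274 and 1669 to 777, 817 and 575, and was at 1738, 2314 and 2018 in the knockout (1.47 ± 0.21). Its other probe set gave -0.22 and 0.55. Slc38a2, which is induced by amino acid shortage in many cells, fell, at -0.70 ± 0.15, or at -0.27 (adjusted p = 0.24) with median centring, and was higher in the knockout by 0.99 ± 0.15. Slc38a9, the arginine sensor of the lysosome, was not called (-0.33 ± 0.24, adjusted p = 0.32). Slc7a7 fell, at -0.95 ± 0.26 (adjusted p = 0.02, or 0.16 with median centring), Slc36a1 at -1.18 ± 0.27 and Slc36a4 at -0.95 ± 0.14. Another 3 importers had a difference over all arrays that passed the threshold with the array number as a block and missed it without. Slc1a5, the glutamine importer ASCT2, was at -1.09 ± 0.42 (adjusted p = 0.073, block 0.0032). Its knockout difference of 1.02 had an adjusted p of 0.094, or 0.0045 with the block. Slc7a1, the constitutive arginine importer CAT1, was at -0.77 ± 0.35 (adjusted p = 0.11, block 0.008), and was higher in the knockout by 1.19 ± 0.35 (adjusted p = 0.026, or 0.12 with median centring). Slc7a5, the light chain LAT1, was at -0.62 ± 0.41 with DNA, and its knockout difference of 0.93 ± 0.41 had an adjusted p of 0.11, or 0.027 with the block.

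Sugar and monocarboxylate carriers also split. Of 15, 3 rose and 7 fell with DNA, with a median of -0.70, and 4 were higher and 2 lower in the knockout. The split with DNA was 3 rises and 3 falls after quantile normalization and turned to 4 rises and 2 falls after median centring, where the median was -0.27. The median in the knockout was 0.37 and turned to -0.03 under median centring. Slc2a6, a glucose transporter of lysosomes, had signals of 2108, 3469 and 1958 in media, 11140, 6150 and 6660 with DNA and 3671, 3007 and 3010 in the knockout. All wild-type DNA arrays lay above the others (1.66 ± 0.27, adjusted p = 0.0019, and -1.26 ± 0.27 for the knockout, adjusted p = 0.006, or 0.065 without the arrays numbered 3). Slc37a3 rose by 0.69 ± 0.17, while its other probe set gave -0.09, and the call was lost when they were averaged and without the arrays numbered 2 (adjusted p = 0.071) or 3 (0.11). Slc16a1, the lactate and pyruvate carrier MCT1, was at 1250, 1268 and 1433 in media and 4921, 1355 and 3248 with DNA, so that 1 DNA array stayed within the media range. Its rise of 1.08 ± 0.37 had an adjusted p of 0.047, which went up to 0.25 without the arrays numbered 1 and also without those numbered 3.

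Slc2a1, the main glucose importer GLUT1, was at 4485, 10825 and 14631 in media, 12444, 17478 and 19499 with DNA and 7742, 13796 and 15371 in the knockout. The arrays differed by number as well as by group. The difference of 0.86 ± 0.41 was not called (adjusted p = 0.13), and was called with the number as a block (0.0038), and its other 2 probe sets gave 0.95 and 1.15. Slc16a3, the lactate exporter MCT4, followed the same layout, at 119, 317 and 526 in media and 215, 624 and 730 with DNA (0.73 ± 0.66, adjusted p = 0.43, block 0.019). Slc2a3, the glucose importer GLUT3, was at 1047, 295 and 459 in media and 390, 208 and 296 with DNA (-0.82 ± 0.44, adjusted p = 0.18, block 0.011).

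The falls of this class were led by Slc16a6, a monocarboxylate carrier known as a ketone body exporter. It had signals of 1053, 908 and 650 in media, 125, 150 and 167 with DNA and 396, 1033 and 807 in the knockout, and the wild-type DNA arrays were lowest (-2.42 ± 0.33, adjusted p = 0.0009, and 2.12 ± 0.33 for the knockout, adjusted p = 0.0013). Both calls held in each of the 21 alternative settings. Slc45a4 went from 2328, 898 and 1169 to 447, 431 and 393 (-1.63 ± 0.32, adjusted p = 0.0041, or 0.065 without the arrays numbered 3). It was at 1236, 764 and 960 in the knockout, a difference of 1.16 ± 0.32 from the wild type (adjusted p = 0.019) that missed the threshold with quantile normalization (0.075) and median centring (0.10). Slc16a7, the monocarboxylate carrier MCT2, fell, at -1.20 ± 0.28, Slc2a8, an intracellular glucose transporter, at -0.96 ± 0.30, and Slc5a3, the importer of myo-inositol, at -0.89 ± 0.19. Median centring ended the calls of these 3 genes, and that of Slc2a8 was lost in 10 of the 21 alternatives. Slc37a2, a sugar phosphate exchanger of the endoplasmic reticulum, was at -0.62 ± 0.26 (adjusted p = 0.092, block 0.048). Its knockout difference of 0.75 had an adjusted p of 0.051, or 0.024 with the block.

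**Figure D3:**
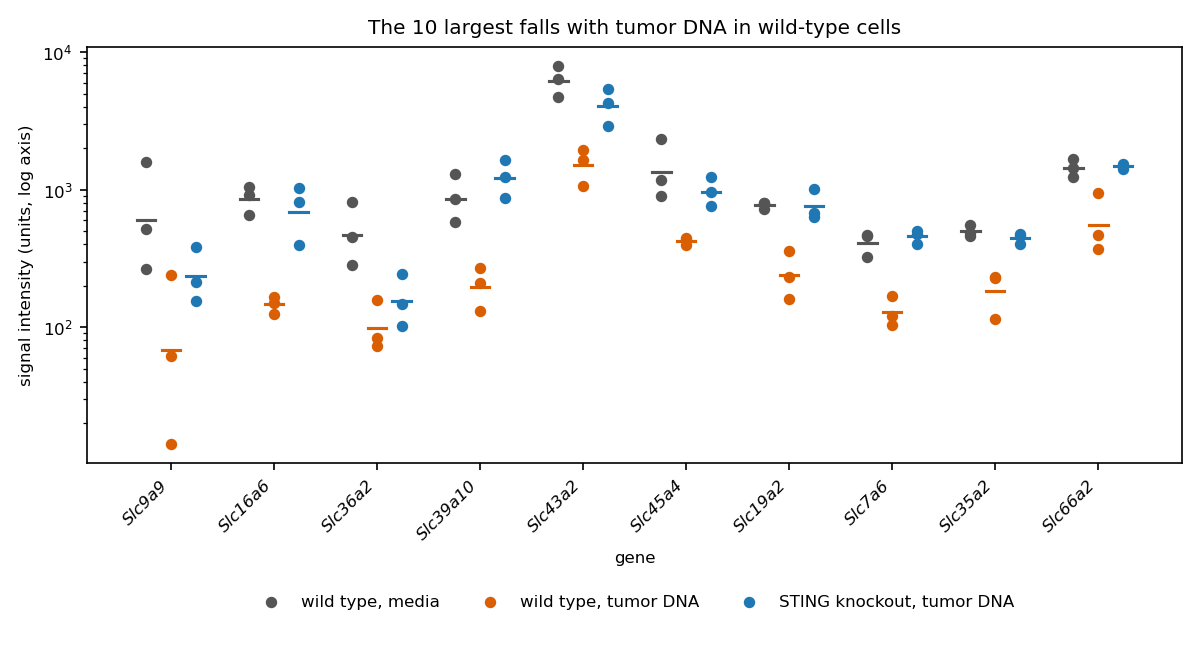
Signal intensity (units, log axis) of the 10 solute carriers with the largest called falls on DNA among those whose DNA and media arrays did not overlap, in the 3 arrays of each group; points are arrays and short lines are means on the log2(signal + 16) scale. The choice fixed that DNA arrays lie below media arrays. The knockout arrays of Slc9a9 and Slc36a2 overlap their wild-type DNA arrays, and those of the other 8 genes lie above theirs.

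Metal carriers moved both ways. Of 27, 5 rose and 7 fell with DNA, and 9 were higher and 3 lower in the knockout, or 12 and 5 with the block. The class median with DNA was -0.20 and turned to 0.23 under median centring, and that of the knockout turned from 0.39 to -0.01. In the zinc importer family 39, 6 of 12 members fell and only Slc39a2 rose, or 3 fell and 2 rose after median centring, with a family median of -0.46, or -0.22 after quantile normalization and -0.02 after median centring. Slc39a10 went from 1301, 849 and 577 in media to 210, 271 and 132 with DNA and was at 1648, 874 and 1237 in the knockout. The wild-type DNA arrays were lowest, at -2.05 ± 0.35 against media (adjusted p = 0.0025) and 2.53 ± 0.35 in the other comparison (adjusted p = 0.00081). Slc39a14, an importer of zinc and of iron not bound to transferrin, went from 431, 666 and 788 to 241, 238 and 356, with 576, 889 and 1093 in the knockout. Its fall of -1.11 ± 0.29 (adjusted p = 0.017) was -0.68 (adjusted p = 0.11) with median centring and -0.44 (adjusted p = 0.17) when its probe sets were averaged. Slc39a6 fell, at -1.05 ± 0.20, Slc39a11 at -0.99 ± 0.19, Slc39a9 at -0.62 ± 0.20 and Slc39a7, which releases zinc from the endoplasmic reticulum, at -0.54 ± 0.15. The falls of Slc39a9 and Slc39a7 were lost in 13 and 8 of the 21 alternatives. The other 5 members of the family, among them Slc39a1 at 0.17 ± 0.17, were not called.

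**Figure D4:**
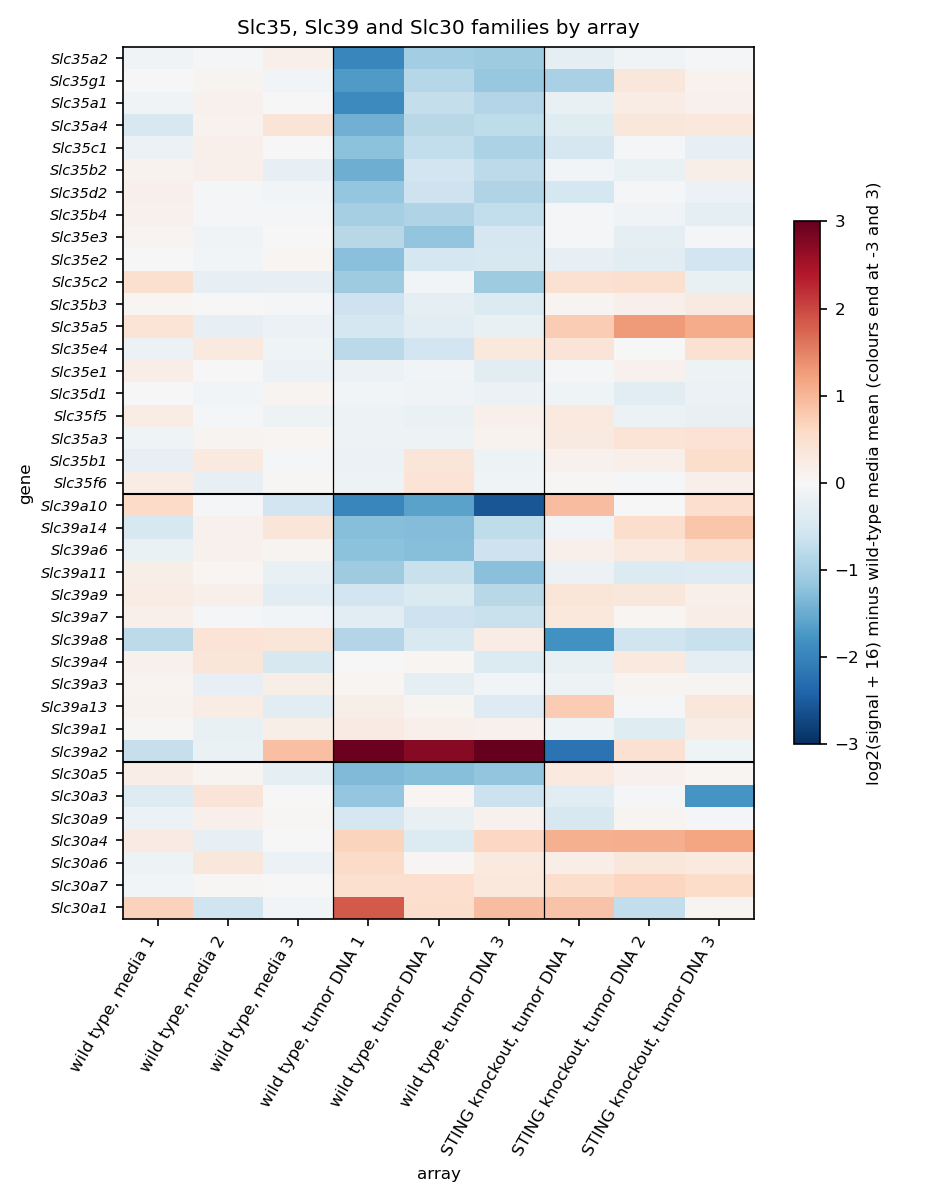
Heat map of log2(signal + 16) minus the wild-type media mean for the 20 family 35, 12 family 39 and 7 family 30 members (rows, families divided by black lines) in the 9 arrays (columns); blue is lower and red is higher, with colours ending at -3 and 3. The blue block in the middle columns holds the 11 falls of family 35, and Slc39a2 is the red row of family 39.

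Zinc exporters of family 30 behaved one by one. Slc30a5, which loads zinc into the secretory pathway, went from 2103, 1945 and 1527 to 724, 753 and 796 and was at 2266, 2007 and 1923 in the knockout (-1.26 ± 0.16, adjusted p = 0.00064, and 1.42 ± 0.16, adjusted p = 0.0003). Both calls held in each of the 21 alternatives. Slc30a1, the zinc exporter of the plasma membrane, was at 2276, 934 and 1325 in media, 5117, 2040 and 2688 with DNA and 2560, 845 and 1499 in the knockout. Each wild-type DNA array was above the other 2 arrays of its number, while the groups overlapped. The difference of 1.10 ± 0.46 had an adjusted p of 0.096, or 0.00028 with the number as a block, and the knockout difference of -1.03 ± 0.46 had 0.12, or 0.00031 with the block. Slc30a7 rose by 0.43 ± 0.13, and the mean of its probe sets gave -0.17 (adjusted p = 0.44). Slc30a4 was called in the knockout against the wild type (0.82 ± 0.28, adjusted p = 0.047), a call lost in 15 of the 21 alternatives. The metallothioneins Mt1 and Mt2, which bind zinc and copper, were at 0.26 ± 0.17 and 0.47 ± 0.39 and not called.

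Both copper carriers of family 31 were called higher with DNA, Slc31a1 only near the threshold. Slc31a2 had signals of 1039, 1553 and 1360 in media, 4956, 2513 and 3283 with DNA and 1768, 1244 and 1352 in the knockout. They were highest in all wild-type DNA arrays (1.40 ± 0.26, adjusted p = 0.0035, or 0.059 without the arrays numbered 3). Slc31a1, the copper importer CTR1, rose by 0.42 ± 0.14 (adjusted p = 0.046), a call lost in 15 of the 21 alternatives. It was lower in the knockout at -0.70 ± 0.14. That call was lost when its probe sets were averaged (adjusted p = 0.061) and without the arrays numbered 2 (0.072) or 3 (0.067). Its other probe set gave -0.19 with DNA and -0.02 for the knockout against the wild type. Averaged over its probe sets, the rise was 0.12 (adjusted p = 0.53). Slc11a2, the ferrous iron carrier DMT1, rose by 0.65 ± 0.19 (adjusted p = 0.025), and its other probe sets gave -0.26, 0.70 and 0.33. The call was lost in 9 of the 21 alternatives, among them the average of its probe sets (0.35, adjusted p = 0.27). Slc11a1, the phagosomal metal carrier NRAMP1, was at -0.30 ± 0.17 with DNA (adjusted p = 0.21) and higher in the knockout by 0.69 ± 0.17 (adjusted p = 0.014, or 0.22 with median centring). Slc40a1, the iron exporter ferroportin, was at 3519, 759 and 2136 in media, 1406, 593 and 802 with DNA and 2380, 1167 and 2786 in the knockout. Its 3 groups overlapped, and the difference of -1.02 ± 0.54 was not called (adjusted p = 0.18). It was called with the block (0.0098), without the media array numbered 2 (-1.63, 0.027) and without all arrays numbered 2 (-1.35, 0.039). The knockout difference of Slc40a1, 1.16, had an adjusted p of 0.13, or 0.0053 with the block. Of 12 other metal handling genes, 1 rose and 3 fell, or 3 and 2 after median centring. The transferrin receptor gene Tfrc fell, at -1.86 ± 0.26 and Aco1, which encodes an iron regulatory protein, at -1.54 ± 0.18, and both were higher in the knockout, by 1.79 ± 0.26 and 1.26 ± 0.18. Hmox1, which releases iron from heme, rose by 0.81 ± 0.19.

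Of 33 mitochondrial carriers, 14 fell, 3 rose and 16 were not called with DNA (median -0.54, or -0.11 with median centring), and 11 were higher and 2 lower in the knockout. With median centring the same counts were 4 falls and 6 rises, and 5 higher and 6 lower, so the direction of the counts turned with the scale. With the block, Slc25a30, Slc25a35, Slc25a40 and Slc25a45 were also called lower with DNA. In the knockout, Slc25a5, Slc25a15, Slc25a17, Slc25a38 and Slc25a39 were then also called higher and Slc25a44 lower. The 3 that rose were Slc25a22, Slc25a12 and Slc25a37. Slc25a22, a mitochondrial glutamate carrier, had signals of 308, 317 and 383 in media, 1327, 1153 and 1131 with DNA and 417, 306 and 319 in the knockout. The wild-type DNA arrays lay far above the 6 others, by 1.80 ± 0.18 over media (adjusted p = 0.00029) and with -1.76 ± 0.18 for the knockout (adjusted p = 0.00021). Slc25a12, the aspartate and glutamate exchanger aralar, had signals of 1972, 1872 and 2084 in media, 5926, 5003 and 4311 with DNA and 1836, 2206 and 1417 in the knockout (1.34 ± 0.18 and -1.48 ± 0.18). Its other probe sets, of lower signal, gave 0.64 and -0.06. The calls of both genes held in each of the 21 alternatives.

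The promoter of Slc25a22 is shown because it was the only one among the 13 matched rises to hold the interferon-stimulated response element searched for. The window is the minus strand of chr7:141435326-141435625 in GRCm38.p6, 250 bases before to 50 after the annotated start, with the match in capitals.
Slc25a22: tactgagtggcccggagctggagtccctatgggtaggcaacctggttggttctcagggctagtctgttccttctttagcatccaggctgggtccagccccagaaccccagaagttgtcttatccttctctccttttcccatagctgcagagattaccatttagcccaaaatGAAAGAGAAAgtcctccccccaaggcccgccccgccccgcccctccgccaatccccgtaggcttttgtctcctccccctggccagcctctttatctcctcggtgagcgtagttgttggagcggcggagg

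The match begins 79 bases before the start. That element was present in 3.99% of all genes in the table, in 1 of 41 matched falls (Slc25a15) and in 0 of 73 genes not called. Every motif, that element among them, was searched on both strands. The NF-kappaB pattern was loose, fixing only its outer G and C bases. It was in 53.5% of all genes in the table and 76.4% of the solute carriers. By call with DNA, it was in 69.2% of the 13 matched rises, 82.9% of the 41 falls and 74.0% of the 73 genes not called. The antioxidant response element TGACNNNGC was in 14% of all genes and 25.2% of the solute carriers, and the E-box CACGTG in 8.09% and 19.7%. All genes here are those of the RefSeq table, expressed or not. Whether solute carriers differ from other expressed genes in these motifs was not tested. Windows were found by symbol for 127 of the 168 genes.

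Slc25a13, the exchanger citrin, which does the same transport as aralar, moved the opposite way to Slc25a12. Slc25a13 went from 544, 628 and 470 to 166, 316 and 165 and was at 448, 655 and 523 in the knockout (-1.33 ± 0.26, adjusted p = 0.0046, and 1.31 ± 0.26, adjusted p = 0.0047). Carriers of nucleotides and cofactors were among the falls. The pyrimidine nucleotide carriers Slc25a36 and Slc25a33 fell, at -1.11 ± 0.16 and -1.06 ± 0.24, Slc25a26, which imports the methyl donor S-adenosylmethionine, at -1.06 ± 0.16, Slc25a51, the importer of NAD, at -0.93 ± 0.17, and Slc25a32, a folate and flavin carrier, at -0.86 ± 0.17. The ADP/ATP exchanger Slc25a4 fell, at -0.66 ± 0.14. After median centring the falls of Slc25a33, Slc25a32 and Slc25a4 were not called. Its relative Slc25a5 was at -0.23 ± 0.10 (adjusted p = 0.098). Slc25a37, the iron importer mitoferrin 1, rose by 0.58 ± 0.19 (adjusted p = 0.044), which went up to 0.27 without the arrays numbered 3. Slc25a28, mitoferrin 2, was at 0.37 ± 0.18 (adjusted p = 0.13) and was called with quantile normalization (0.59, adjusted p = 0.03). Slc25a1, the citrate exporter, was at -0.07 ± 0.14.

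In family 35, the class named for nucleotide sugars, 11 of 20 fell and 0 rose with DNA, and 13 were higher and 0 lower in the knockout. The class was set by family number alone and also holds members that carry other donors. The family median with DNA was -0.74, which became -0.46 after quantile normalization and -0.31 after median centring. In the knockout it was 0.67, 0.43 and 0.27 in the same order. Under median centring 3 fell and 3 were higher in the knockout. Without the arrays numbered 1, 2 or 3 the falls were 7, 5 and 2 and the genes higher in the knockout 8, 4 and 1. The falls ranged from -1.36 to -0.45. Slc35a1, the CMP-sialic acid carrier, went from 705, 821 and 743 to 189, 453 and 400 and was at 646, 890 and 827 in the knockout (-1.17 ± 0.29 and 1.22 ± 0.29). Slc35c1, the GDP-fucose carrier of the Golgi, went from 562, 705 and 638 to 258, 375 and 318 and was at 441, 603 and 530 in the knockout (-0.98 ± 0.20 and 0.70 ± 0.20). In both genes the wild-type DNA arrays lay below the 6 others. The knockout call of Slc35c1 (adjusted p = 0.021) was lost in 7 of the 21 alternatives, among them quantile normalization and median centring. Without the arrays numbered 3, no call of either gene held.

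Slc35b2 and Slc35b3, which carry the sulfate donor PAPS into the Golgi, fell, at -0.94 ± 0.25 and -0.45 ± 0.15. These falls were lost in 7 and 13 of the 21 alternatives. Slc35a2, the UDP-galactose carrier, went from 459, 484 and 551 to 115, 233 and 227 and was at 405, 458 and 479 in the knockout. Its fall of -1.36 ± 0.25 (adjusted p = 0.0033) was larger than any in its other probe sets, which gave -0.11, -0.26, -0.72, 0.25 and -0.70. Averaged over its probe sets above the filter, the value was -0.44 (adjusted p = 0.15). The UDP-N-acetylglucosamine carrier Slc35a3 was at -0.07 ± 0.13 with DNA. Slc35a5 stood apart in the family: its signals were 1689, 1058 and 1123 in media, 873, 997 and 1079 with DNA and 2157, 3098 and 2763 in the knockout. The knockout arrays lay above both other groups. It was not called with DNA (-0.36 ± 0.21, adjusted p = 0.22), was higher in the knockout than in the wild type by 1.42 ± 0.21 (adjusted p = 0.0011) and was at 1.06 against media (adjusted p = 0.087). Without the arrays numbered 1 the last value was 1.41 (adjusted p = 0.013), and it was also called without the media array or the knockout array of that number alone (1.27 and 1.20, adjusted p = 0.046 and 0.044).

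Inorganic ion carriers held 1 rise and 4 falls among 17, or 2 and 6 with the block, and 3 genes higher and 1 lower in the knockout, or 6 and 2. The class median with DNA was -0.67, and that in the knockout was 0.35 and turned to -0.04 with median centring. Slc9a9, a sodium and proton exchanger of endosomes, had signals of 1591, 267 and 514 in media and 240, 14.1 and 61.4 with DNA. The knockout arrays were at 383, 155 and 212 and overlapped the wild-type DNA arrays. As for Slc39a2, a difference was built into the choice of Slc9a9. The fall of -2.89 ± 0.79 (adjusted p = 0.019) was -1.75, -0.09 and -0.63 in its other probe sets. It missed the threshold without the media array numbered 1 (-2.20, adjusted p = 0.066), the DNA array numbered 2 (-2.14, 0.057) the DNA array numbered 3 (-2.83, 0.052) or all arrays numbered 3 (-2.94, 0.14). The knockout difference of 1.57 ± 0.79 was not called (adjusted p = 0.16). It was called with the block (0.0032), without the DNA array numbered 1 (2.37, 0.041) and without all arrays numbered 1 (2.03, 0.026). Slc20a1, the phosphate importer PiT1, was at 1530, 3295 and 2855 in media, 797, 1040 and 1538 with DNA and 2203, 4852 and 5196 in the knockout. Its fall of -1.15 ± 0.39 was near the threshold (adjusted p = 0.045, or 0.18 with median centring), and the knockout exceeded the wild type by 1.80 ± 0.39 (adjusted p = 0.0068, or 0.075 and 0.062 without the arrays numbered 2 or 3). Slc26a6, an anion exchanger, and Slc12a7, a potassium and chloride cotransporter, fell, at -1.14 ± 0.23 and -0.82 ± 0.22, and the fall of Slc12a7 was lost in 7 of the 21 alternatives. Slc4a11 rose by 0.86 ± 0.23, from 250, 237 and 192 to 523, 427 and 334, and was at 166, 187 and 261 in the knockout (-1.01 ± 0.23). Its rise missed the threshold without the DNA array numbered 1 (0.71, adjusted p = 0.061) or the media array numbered 3 (0.75, 0.063), and without all arrays of number 1 (0.063), 2 (0.11) or 3 (0.062).

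Vitamin, nucleoside and heme carriers gave 1 rise and 3 falls among 10, and 3 higher and 2 lower in the knockout. The class median was -0.17 with DNA and turned to 0.13 with quantile normalization and 0.26 with median centring. Slc19a2, the thiamine importer, went from 726, 801 and 798 to 161, 232 and 360 and was at 678, 1008 and 637 in the knockout (-1.63 ± 0.28, adjusted p = 0.0024, and 1.60 ± 0.28, adjusted p = 0.0022). Its second bright probe set also gave -1.63. Slc19a1, the reduced folate carrier, which has also been described as an importer of cyclic dinucleotides, the ligands of STING, in human cells, went from 451, 353 and 465 to 187, 249 and 223 and was at 430, 357 and 467 in the knockout. The lowest values were those of the wild-type DNA arrays (-0.90 ± 0.19 and 0.88 ± 0.19, adjusted p = 0.0068 and 0.0071, or 0.087 and 0.081 with median centring). Of family 46, Slc46a1 and Slc46a2, had means of 6.29 and 4.68 and were below the level. Slc48a1, a heme carrier, fell, at -0.75 ± 0.13 (not called after median centring), and Slc23a2, the vitamin C importer, rose by 0.69 ± 0.16. Slc29a3, a nucleoside carrier of lysosomes, was lower in the knockout at -1.18 ± 0.40 (adjusted p = 0.047), a call lost in 10 of the 21 alternatives, such as without the arrays numbered 2 (0.13) or 3 (0.22). With DNA it was at 0.80 ± 0.40 (adjusted p = 0.15, block 0.0038).

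The remaining 15 carriers of organic ions and lipids held 2 falls and 0 rises, or 6 and 1 with the block, and 4 genes higher in the knockout. The class median with DNA, -0.38, turned to 0.05 with median centring, and that of the knockout from 0.22 to -0.18. Slc66a2 went from 1433, 1673 and 1238 to 373, 952 and 470 and was at 1528, 1488 and 1418 in the knockout (-1.36 ± 0.29 and 1.39 ± 0.29). When the arrays numbered 3 were left out, these had adjusted p-values of 0.082 and 0.092. Slc10a3, a relative of the bile acid carriers, fell, at -0.97 ± 0.16. Slc22a4, the importer of ergothioneine, was not called with DNA (-0.15 ± 0.18) and was higher in the knockout by 0.80 ± 0.18, where its 3 arrays, at 589, 603 and 621, lay above the 6 others. That call was lost after quantile normalization and median centring and without the arrays numbered 2 (adjusted p = 0.069) or 3 (0.084).

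Other transporters were counted in the same fit. Of 32 ABC transporters, 2 rose and 11 fell with DNA, or 5 and 5 after median centring, and 11 were higher and 2 lower in the knockout. Abcb1a, the drug efflux pump, rose by 2.70 ± 0.26 and was lower in the knockout at -2.29 ± 0.26, and Abcg1, a cholesterol exporter, rose by 1.22 ± 0.28. Of 17 P-type ATPases, 3 rose and 1 fell, and of 18 V-type ATPase subunits, which acidify lysosomes, 3 rose and 1 fell. With median centring 8 V-type subunits rose and 0 fell. Among 12 partner proteins and enzymes, Acod1, which makes itaconate, rose by 0.80 ± 0.14, and Emb, Ldhb and Glul fell. Glul, which makes glutamine, fell, at -1.71 ± 0.20 and was higher in the knockout by 1.11 ± 0.20. Gclc, which limits glutathione synthesis, was at -0.36 ± 0.25 with DNA and higher in the knockout by 1.27 ± 0.25.

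Several probe sets of a gene did not always give the same size. For the 45 solute carriers called with DNA that had another probe set above the filter, 64 of 72 other probe sets had the same sign, 8 the opposite one, and 22 showed under 0.5 of the size. In the knockout comparison 63 of 68 had the same sign for 42 genes, 5 the opposite one, and 27 showed under 0.5 of the size. The plot of probe sets gives each value for the leading genes.

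**Figure D5:**
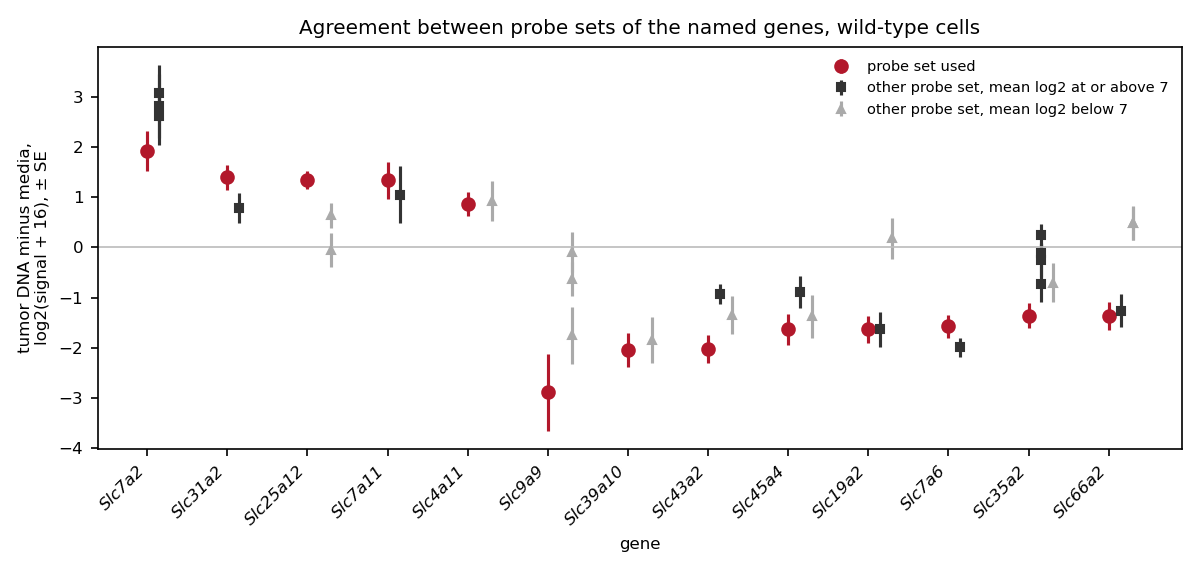
Difference in log2(signal + 16) between tumor DNA and media in wild-type cells, with its SE, for each probe set of the leading rises and falls that have several; circles are the probe set used, squares are others with a mean log2 of at least 7 and triangles are dimmer ones. The 3 other probe sets of Slc7a2 lie between 2.61 and 3.07, and those of Slc35a2 lie between -0.72 and 0.25.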

How the data were processed

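Messenger RNA of 9 samples was measured on 1 array each. The authors deposited linear signal intensities made with MAS5, per the submitters' processing notes; in these deposited intensities the trimmed mean was 499.8 on each array, so they had been scaled. The version of MAS5 and the genome build of the array were not given in the sources used here, and the number of arrays limits the precision. Signals were analysed as log2(signal + 16), which understates changes of low signals. Of 45101 probe sets, 64 were controls and 34945 carried 1 gene symbol in the platform annotation. The filter kept probe sets whose mean exceeded 5.67 in log2, the 40th percentile, the one with the highest mean stood for a gene, and 12586 genes were fitted in R 4.3.3 on the 9 arrays together (limma 3.58.1, lmFit and eBayes with an intensity trend, 2-sided, Benjamini-Hochberg over all genes). An error after ± is the standard error of the log2 difference. The fit was tested on simulated data.

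Arrays with the same number in their titles correlated in their residuals (9 of 9 arrays correlated best with their own number), so the numbers pair the arrays. The main counts are from the fit without that number as a blocking factor. The adjusted p with the block stands beside a printed difference of a solute carrier whose call it changes. Class counts with the block are given for some classes only. The solute carriers, the other lists and the tests were chosen with earlier results of these data known. Named were the 10 largest called rises and falls of each main comparison among members whose groups did not overlap, and a list of carriers given in the design; other named members of a class were picked after their values were seen. Alternatives were offsets of 64 and 1, no filter, quantile normalization, median centring, the mean of probe sets, no intensity trend, the block, the 2 groups alone, and leaving out arrays. Promoter windows are RefSeq's, GRCm38.p6.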

Additional observations from a re-analysis of the deposited data

How the results depend on the processing

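The counts of called solute carriers were recomputed under 21 alternatives. The shares of all genes called under the same alternatives are not given here, so a shift of the whole array is not set apart. With median centring, 34 were higher and 24 lower with DNA, and 25 higher and 24 lower in the knockout against the wild type. With the array number as a replicate block, the pairing gave 26 rises and 73 falls with DNA, 71 genes higher and 20 lower in the knockout, and, for the knockout with DNA against media, 1 higher (Slc30a4, 1.11, adjusted p = 0.042) and 1 lower (Slc36a2, -1.52, adjusted p = 0.0052). Leaving out arrays gave 9 to 19 rises and 18 to 61 falls with DNA, 18 to 55 genes higher and 7 to 16 lower in the knockout, and 0 to 1 higher and 0 lower for the knockout with DNA against media, where the 1 was Slc35a5 or Slc30a4. The lowest counts were without the arrays numbered 3. Of 77 calls with DNA, 27 were kept there, against 54 without the arrays numbered 1 and 45 without those numbered 2. Of 68 calls in the knockout, 25 were kept, against 51 and 36. These fits are of the same size, and the fewest calls were kept without the arrays numbered 3. Whether this came from those arrays or from the spread between the arrays left in was not tested. Over the named genes and alternatives, 2806 values kept their side of the threshold, 161 no longer passed it, 57 newly passed it and 0 reversed a call. Some differences that were not called changed sign, such as that of Slc16a3 in the knockout against the wild type (-0.75 to 0.40). Of the calls, 7 of 19 rises, 14 of 58 falls, 14 of 54 genes higher and 5 of 14 lower in the knockout held in each of the 21 alternatives. Slc30a7, called with DNA at 0.43, was at -0.17 when its probe sets were averaged, and no other called solute carrier changed sign under these alternatives. Signals near background, as for Slc39a2, Slc9a9 and Slc36a2, limit the size of their differences.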
